A study of Danio rerio with 58 samples.

Results

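Unexposed AB strain zebrafish embryos collected at 24 hours post-fertilization (hpf) were compared between 3 irradiation batches. They are the 11 control libraries labelled as 24 hpf in batches I10 (2 libraries), I17 (3 libraries) and I32 (6 libraries), of 58 libraries in the series. The series tested chronic gamma irradiation from a cesium source, and none of these 11 was irradiated. Differences among these 11 therefore lie between batches or libraries and not between dose rates. Each library is a polyadenylated, stranded RNA-seq library of whole embryos that came from pooled clutches, raised in medium with methylene blue under dark and light cycles. The study labels I10, I17 and I32 as irradiation batches. Its methods state that irradiation was repeated independently at least 3 times, but not how the repeats map to these batches. Which clutches went into each batch is not given. Batch cannot be told apart from clutch, day of collection or hour of collection, the last of which is not given in the sources used here. The study's methods describe dishes of the same irradiation as technical replicates, while its RNA extraction protocol calls pools of embryos biological replicates. The p-values here measure the spread between libraries of a batch, which may be technical. Further groups were used only beside these controls. They are the 9 libraries of I10 and I32 embryos irradiated at 0.5 mGy/h and collected at 24 hpf (3 and 6 libraries), and the 14 unexposed libraries of I17 and I10 at 48 and 96 hpf.

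Zebrafish embryos around this stage finish somite formation, while the lens, the skeletal muscle and the first neurons differentiate quickly, so that small differences in developmental progress move many transcripts. Somite formation is paced by oscillating repressors of the hairy family in the presomitic mesoderm, which is fed by progenitors of the tailbud. The embryo also carries a circadian clock in which Clock and Bmal proteins activate genes of period, cryptochrome and nuclear receptor repressors. Light resets this clock through genes such as per2, and it also induces photolyases that repair ultraviolet lesions. In whole embryos, fewer cells of a type and less RNA per cell cannot be told apart.

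The 11 libraries held 29672762 to 38960084 counts on genes, and 71 to 74.2% of read pairs were assigned to genes. Values are given as CPM, the count of a gene as a share of its library's total, scaled by TMM, the trimmed mean normalization of edgeR, and a gene was called when it differed by at least 1.5-fold with an adjusted p under 0.01 in edgeR's quasi-likelihood test over the 19687 genes that passed the filter on low counts. Libraries of the same batch differed by a root mean square of 0.4 to 0.567 on the log2 CPM scale, and libraries of different batches by 0.518 to 0.902. The within and between ranges overlapped only at the low end of I10 against I17 and of I10 against I32. The first principal component took 32.46% of the variance and the second 23.96%. I10 replicate 2 (-62.06) and I32 replicate 4 (51.3) lay at the ends of the first component. The 3 I17 libraries (-36.15, -51.61 and -43.63) lay apart from all other libraries on the second. The study removed potential outliers, and I32 replicate 4 was set aside there as one of them. It was kept here, and without it 1539 genes were called for I17 against I32, in place of 1492 with it. Every pair of libraries, within or between batches, differed by more than sampling noise (chi-square of at least 5.58 per degree of freedom), so that none was treated as a library deposited in duplicate.

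Between 1492 and 2684 genes were called in each comparison of unexposed batches. I17 against I32 had 1492 genes called (7.58%), with 748 higher in I17 (3.8% of the genes tested) and 744 lower (3.78%). I17 against I10 had 1559 (7.92%), with 575 higher (2.92%) and 984 lower (5%). I32 against I10 had 2684 (13.6%), with 1130 higher (5.74%) and 1554 lower (7.89%). The 3 comparisons share libraries and are not independent of each other. Over all 3 batches at once, 4808 genes (24.4%) differed in edgeR's F test. Both comparisons with I10 rest largely on its replicate 2. Without that library 95 genes were called for I17 against I10 and 222 for I32 against I10, while 1494 were called for I17 against I32, which does not include it. The results below lead with I17 against I32 for this reason, although that comparison depended on its own libraries, with 806 genes called without I17 replicate 4. Values for I10 are given library by library.

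Genes of differentiated lens, muscle and neurons were higher in unexposed I17 embryos than in unexposed I32 embryos of the same labelled stage. Of 39 lens genes tested, 17 were higher in I17 and 0 were lower, with a median log2 difference of 0.98 beside 0.009 over all genes. Without I17 replicate 4, 12 of 37 lens genes were higher, beside 420 of the 19546 genes tested in that fit. MIP (ENSDARG00000013963), the major intrinsic channel protein of lens fibre membranes, had 28.2, 42.7 and 33.6 CPM in the 3 I17 libraries. In I32 it had 7.77 CPM in the lowest library, a median of 11.5 and 13.2 in the highest. The 2 I10 libraries had 8.39 and 12.4 CPM, so that I17 was above every library of the other batches. The I17 minus I32 log2 difference of MIP was 1.65 ± 0.16 (SE; edgeR adjusted p = 6.22e-07). The gamma crystallins crygm2d13 and crygm2d18 differed by 1.65 and 1.75 on the same scale. The gamma M crystallins, like the fast myosins below, are tandem families of near-identical copies, and how reads were divided among the copies is uncertain.

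Of 43 genes of the sarcomere and of calcium release, 20 were higher in I17 than in I32 and 0 were lower, with a median log2 difference of 0.64. myhc4, a fast myosin heavy chain of larval muscle, had 56, 49.9 and 45 CPM in I17 against 16.5 to 21.4 CPM in I32 and 15.5 and 19.5 CPM in I10. xirp2b, which encodes an actin-binding Xin repeat protein of muscle, differed by 2.23 ± 0.19 (SE; edgeR adjusted p = 1.15e-07) on the log2 scale. Its I17 libraries had 10.6, 11.2 and 13.7 CPM and its I32 libraries 1.55 to 3.29 CPM. ryr3, a calcium release channel of muscle, had 146, 114 and 134 CPM in I17 and 46.9 to 56.5 CPM in I32. For each of these muscle genes the I17 libraries did not overlap those of either other batch. Of 18 myogenic regulators, 1 was higher and 2 were lower in I17 than in I32 (median log2 difference 0.12). Of these, the transcription factor MYOG, which drives entry into muscle differentiation, lay the other way, with 26.8, 40.7 and 33.8 CPM in I17 against 55.2 to 85.1 CPM in I32 and 66.6 and 55.8 CPM in I10.

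Of 49 genes of neuronal differentiation and synapses, 9 were higher in I17 than in I32 and 0 were lower (median log2 difference 0.47). The genes higher were 4 without I17 replicate 4, 5 without replicate 1 and 15 without replicate 3. Over all genes, 420, 470 and 820 were higher in these fits, beside 748 with all libraries. elavl3, an RNA-binding protein of newly formed neurons, had 112, 99.4 and 117 CPM in I17, 46.6 to 67.4 CPM in I32, and 61.4 and 50.3 CPM in I10. nefmb, a medium neurofilament chain, had a log2 difference of 0.91 ± 0.13 (SE). Of 15 proneural factors, 4 were higher in I17 than in I32 and 0 were lower, and 2 of 14 were higher without I17 replicate 4. Among 22 pigment cell genes 4 were higher and 1 was lower (2 and 0 without I17 replicate 4), and PTS, an enzyme of pteridine synthesis, had 34.8, 35.9 and 32.6 CPM in I17 against 14.2 to 20.3 CPM in I32 and 13 and 15 CPM in I10.

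Some genes of the presomitic mesoderm and tailbud were lower in I17. Of 22 genes of the somite clock and its boundary, 0 were higher and 8 were lower in I17 than in I32, and of 22 tailbud progenitor genes 0 were higher and 5 were lower. These counts fell when any single I17 library was left out. The genes lower were 3 somite and 0 tailbud without replicate 1, 5 and 3 without replicate 3, and 4 and 1 without replicate 4. Over all genes, 564, 883 and 386 were lower in these fits, beside 744 with all libraries. her1, an oscillating repressor of the segmentation clock, had 0.571, 0.567 and 0.57 CPM in the I17 libraries. In I32 it had 1.39 CPM in the lowest library, a median of 2.08 and 2.61 in the highest. The 2 I10 libraries had 7.52 and 2.35 CPM, and thus differed from each other by more than the I32 libraries did. The same spread within I10 was seen for msgn1, a regulator of presomitic mesoderm, at 31.2 and 7.99 CPM, and for cdx4, a homeobox factor of the tailbud, at 30.9 and 9.1 CPM. In I17, msgn1 had 1.91, 2.08 and 1.46 CPM and cdx4 had 3.52, 3.37 and 3.27 CPM, below all libraries of the other batches. I10 replicate 2 was the highest of the 11 libraries for her1, msgn1 and cdx4. Without it, the I32 minus I10 log2 difference of her1 was -0.22 (edgeR adjusted p = 0.692), in place of -1.29 with both I10 libraries.

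**Figure D1:**
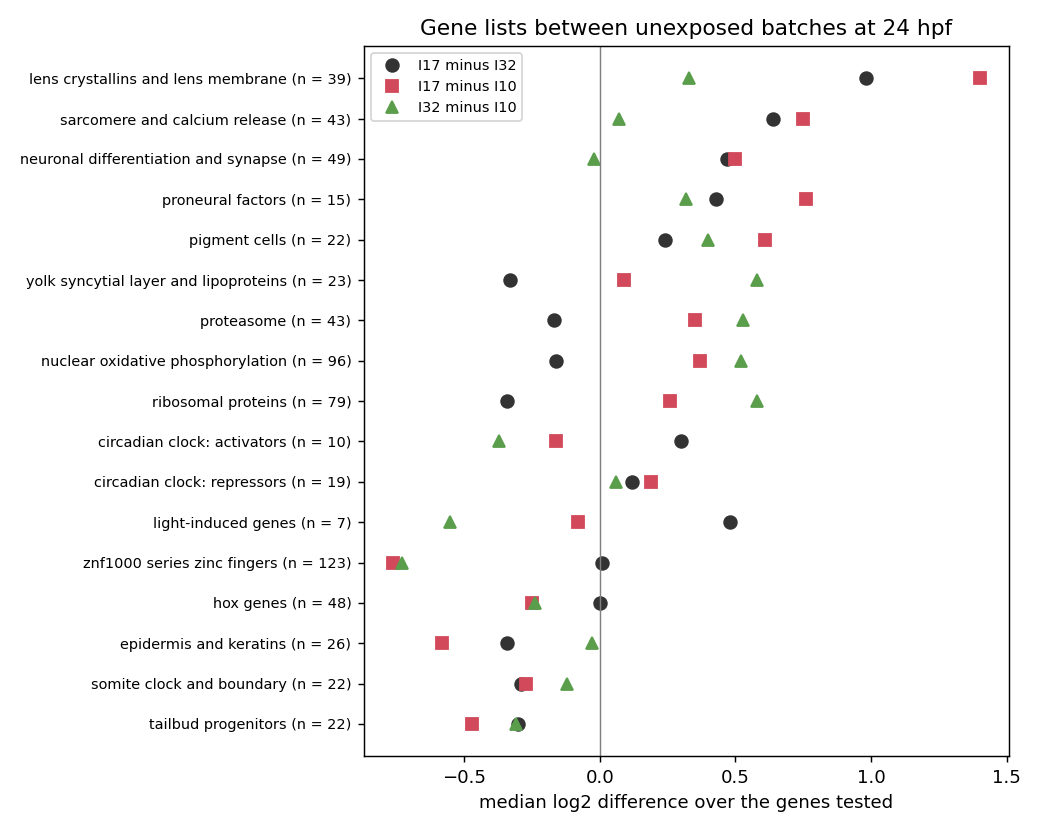
Median log2 difference over the tested genes of 17 gene lists (rows, with the number of genes tested) for each pair of unexposed 24 hpf batches; symbols stand for the 3 comparisons, which share libraries. Lens genes lay at a median of 0.98 for I17 minus I32 and tailbud genes at -0.3.

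Of 26 genes of the epidermis and keratins, 1 was higher and 6 were lower in I17 than in I32, and krt5, a keratin of the epidermis, had 229, 355 and 293 CPM in I17 against 626 to 700 CPM in I32. Of 23 genes of the yolk syncytial layer and lipoproteins, 0 were higher and 7 were lower in I17. Without I17 replicate 4, 4 of this list were lower, beside 386 of the 19546 genes tested in that fit. apoa1a, the main apolipoprotein of high density particles, had 298, 318 and 339 CPM in I17, 538 and 538 CPM in I10, and 720 to 904 CPM in I32. These 3 sets of values did not overlap. serpina1, a secreted protease inhibitor, had 116, 142 and 114 CPM in I17 and 217 to 266 CPM in I32. he1.3, a hatching enzyme gene, had 6.35, 3.82 and 6.03 CPM in I17 and 11.7 to 19.1 CPM in I32.

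The comparisons with I10 gave counts that depended on its replicate 2. Leaving it out leaves 1 I10 library, so that a low count without it does not show that a difference was absent. For I17 against I10, 23 of 39 lens genes, 13 of 43 sarcomere genes and 8 of 15 proneural factors were higher in I17, while 8 of 22 somite clock genes and 11 of 26 epidermal genes were lower. Without I10 replicate 2, the lens median moved from 1.4 to 1.16. Calls over all genes also fell without that library, as given above. For I32 against I10, 15 of 43 proteasome genes and 15 of 96 nuclear genes of oxidative phosphorylation were higher in I32, with medians of 0.53 and 0.52, and 0 of either list were called higher without I10 replicate 2, with medians of 0.41 and 0.35. Of 48 hox genes, which pattern the body axis, 9 were lower and 1 was higher in I17 than in I10, 9 were lower and 2 were higher in I32 than in I10, and 0 were called between I17 and I32. The 2 comparisons with I10 share its libraries, and without replicate 2 neither held a called hox gene. Zinc finger genes named znf1000 upwards, a large and repetitive family, had medians of -0.76 (I17 minus I10), -0.73 (I32 minus I10) and 0.01 (I17 minus I32) over 123 genes, with 3, 15 and 0 called lower. Without I10 replicate 2 the medians of the comparisons with I10 were -0.46 and -0.51, and 0 of 127 were called.

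The position of each library on the change from 24 to 48 hpf was measured on an axis taken from another batch, to compare developmental progress with no shared samples. On the axis of the I10 controls, where 0 is the I10 mean at 24 hpf and 100 the I10 mean at 48 hpf, the I17 libraries lay at 25.6, 22.7 and 25.3%. The 6 I32 libraries lay between 5.88 and 12.5%, with replicate 4 the highest. The 24 hpf mean of the axis batch sets both the 0 and the axis, so that noise in it tends to raise every position. The size of this shift was not estimated. The 0 point cancels in a difference between 2 batches placed on the same axis. The I17 mean was 24.5% ± 1.6 (SD, n = 3) and the I32 mean was 8.3% ± 2.5 (SD, n = 6). The groups did not overlap, and the difference of 16.3 percentage points had p = 0.0119 in an exact two-sided permutation test, the smallest p that the 84 splits of 3 against 6 allow. On the axis of the I17 controls, I32 lay at -10.8% ± 1.8 (SD, n = 6) and I10 at -12.3% ± 5.2 (SD, n = 2). The I10 libraries (-16 and -8.7%) overlapped those of I32 (-12.6 to -7.77%), and the difference between these batches was -1.55 percentage points (exact permutation p = 0.5, smallest possible 0.0357).

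**Figure D2:**
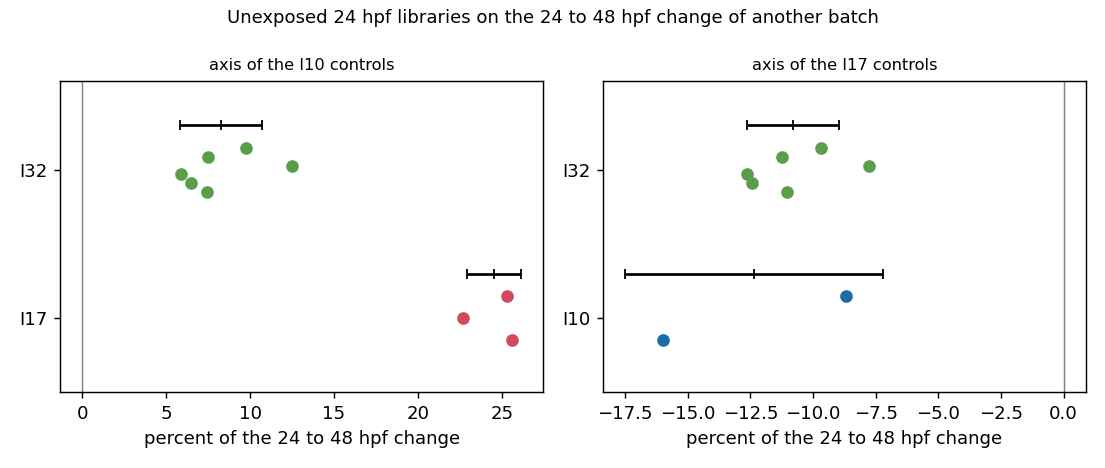
Position of each unexposed 24 hpf library, in percent of the 24 to 48 hpf change of the I10 controls (left) or of the I17 controls (right); points are libraries, bars the mean and SD of a batch. The 3 I17 libraries lay at 22.7 to 25.6% of the I10 change and the 6 I32 libraries at 5.88 to 12.5%.

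The relation across genes largely restates the positions above, since it uses the same libraries and the same I10 change. It is not a second observation. Over 19367 genes, the I17 minus I32 log2 difference at 24 hpf correlated with the I10 change from 24 to 48 hpf (Pearson r = 0.36, Spearman rho = 0.38), which is a description across genes that are not independent replicates. Of 3501 genes that rose from 24 to 48 hpf in I10, 393 were higher and 43 lower in I17 than in I32. Of 2736 that fell, 27 were higher and 296 lower. For I32 minus I10 against the stage change of I17, r was 0.06 and rho 0.07 over 18656 genes.

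Of 49 genes of the clock and light lists, 12 were called in at least 1 of the 3 comparisons, beside 21.8% of all genes tested. Among 10 activators, 0 were called between I17 and I32. Against I10, 1 of the genes named BMAL1 (ENSDARG00000035732) was lower in I17 and CLOCK (ENSDARG00000003631) was lower in I32. Among 19 repressors, 3 were higher and 0 lower in I17 than in I32, and among 13 output regulators 0 were called between these batches. Of 7 light-induced genes, 2 were higher and 0 lower in I17 than in I32 (median log2 difference 0.48), 1 of 7 being higher without I17 replicate 4. Over all genes, 420 were higher in that fit. In I32 against I10, 0 were higher and 3 were lower (median -0.55), and 2 were lower without I10 replicate 2. PER1 (ENSDARG00000012499), a period repressor, had 40.8 and 54.9 CPM in I10, 62.7, 57.2 and 57.8 CPM in I17, and a median of 69.3 CPM in I32 (60 to 75.2), and was called in none of the comparisons. PER2 (ENSDARG00000034503), the light-induced period gene, had 41.8 and 51.5 CPM in I10, 50 to 72.2 CPM in I17 and 43.5 to 56.7 CPM in I32, which overlapped.

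Among the unexposed batches, I32 stood apart for a few members of the cryptochrome and photolyase family and for the period gene PER3. cry3b had 29.7 and 33.5 CPM in I10, 40.1, 34 and 34.3 CPM in I17, and a median of 15.6 CPM in I32 (14.9 to 16.6). The I17 minus I32 log2 difference was 1.21 ± 0.10 (SE; edgeR adjusted p = 3.82e-08). cry5, a photolyase that repairs ultraviolet lesions and is induced by light, had 11.8 and 16.7 CPM in I10, 14.4, 14.4 and 15.6 CPM in I17, and 6.48 to 8.38 CPM in I32. PER3 (ENSDARG00000010519) had 34.9 and 33.6 CPM in I10, 34.7 to 44.1 CPM in I17, and 20.2 to 26.3 CPM in I32. Its I32 minus I10 log2 difference was -0.54, a fold change under 1.5, so that it was not called in that comparison. In each of these 3 genes all I32 libraries lay below all libraries of I10 and I17. cry4 lay the other way, at 25.6 and 26.5 CPM in I10 and 50 to 54.4 CPM in I32, with I17 between them at 33.3, 48 and 40.3 CPM. tefa, a clock output regulator of the PAR bZIP family that carries light responses in zebrafish, had 36 and 48.3 CPM in I10 and 13.9 to 23.4 CPM in I17, with 13 to 26 CPM in I32. I10 was thus higher than both other batches, which overlapped.

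The 0.5 mGy/h libraries of the same batches were set beside these values on 1 TMM scale. PER1 had 41.5 and 55.3 CPM in the I10 controls but 8.83, 6.82 and 7.86 CPM in the 3 I10 libraries at 0.5 mGy/h. The 6 I32 libraries at 0.5 mGy/h had 57.7 to 74.4 CPM, within or near the 60.5 to 75.7 CPM of the I32 controls. The I32 minus I10 log2 difference of PER1 was therefore 3.07 ± 0.15 (SE; edgeR adjusted p = 9.71e-08) at 0.5 mGy/h and 0.52 ± 0.13 in the controls (adjusted p = 0.00514, fold change under 1.5). PER3 had 12.8, 11.1 and 11.3 CPM in the I10 libraries at 0.5 mGy/h, below both I10 controls. cry5 had 6.0 to 7.73 CPM there, also below both controls. The I32 minus I10 log2 difference went from -1.01 in the controls to 0.06 at 0.5 mGy/h for cry5. It went from -0.54 to 1.07 for PER3, and from -1.01 to -0.39 for cry3b. For cry4 it went from 1.02 to 0.48 and for tefa from -1.05 to -0.1. PER1 was called at 0.5 mGy/h, while cry5, PER3, cry3b, cry4 and tefa were not. PER1 thus lay higher in the unexposed libraries of all 3 batches, and in the exposed I32 libraries, than in the exposed I10 libraries. The unexposed libraries were not at the same level, since both I10 controls lay below all I32 controls. Dose rate and any other difference between the I10 controls and these I10 libraries cannot be told apart here.

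**Figure D3:**
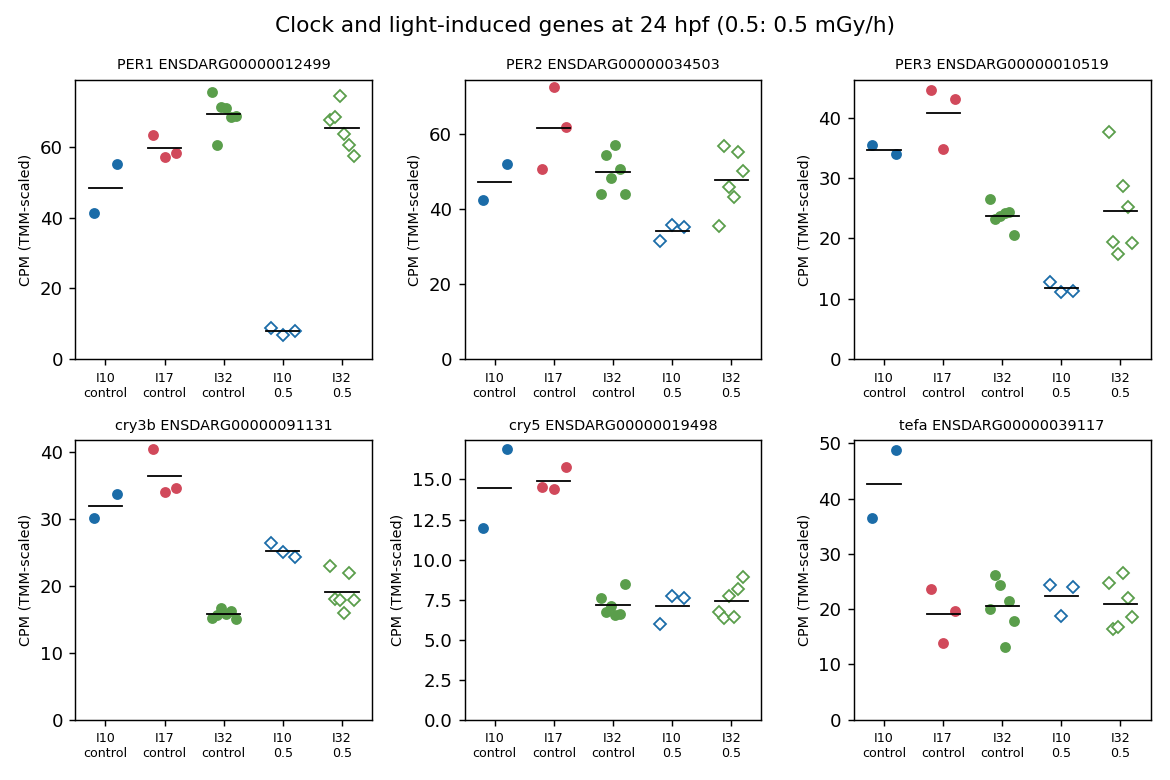
CPM of 6 clock and light-induced genes at 24 hpf in the unexposed libraries of 3 batches (filled circles) and in the 0.5 mGy/h libraries of I10 and I32 (open diamonds); lines are group means. PER1 lay at 41.5 to 75.7 CPM in all controls and at 6.82 to 8.83 CPM in the I10 libraries at 0.5 mGy/h.

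A few genes were near 0 in every library of a batch and readily detected in every library of another. By a rule chosen after the values were seen (at most 3 counts in each library of a batch, at least 1 CPM in each library of another), 7 genes qualified, 4 of them near 0 in I17, 2 in I32 and 1 in I10. Levels of these genes are given as counts or as CPM without TMM scaling. ANXA3 (ENSDARG00000009196), a calcium-dependent membrane-binding annexin, had 674 and 585 counts in the I10 libraries, 242 to 390 counts in the I32 libraries, and 0 counts in each of the 3 I17 libraries. A floor of 3 counts per library makes it at least 167-fold lower in I17 than in I10 and at least 64.1-fold lower than in I32. PAQR3 (ENSDARG00000017703), a membrane protein of the Golgi, had 180 and 140 counts in I10, 129 to 216 counts in I32 and 0 counts in each I17 library. It was at least 39.9-fold lower in I17 than in I10. EEF2 (ENSDARG00000035256), which carries the name of a translation elongation factor, had 505 and 612 counts in I10, 909 to 1211 counts in I32, and 0, 1 and 1 counts in I17. Its I32 to I17 ratio was 1520 with a 95% counting interval of 421 to 12600.

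For ANXA3, PAQR3 and EEF2 the near absence in I17 held at every stage and dose rate measured. Over all 27 libraries of I17, unexposed and irradiated at 24, 48 and 96 hpf, ANXA3 had 0 counts and PAQR3 at most 1 count. EEF2 had at most 5 counts per library. In the 19 libraries of I10, ANXA3 had at least 90 counts, PAQR3 at least 52 and EEF2 at least 447. The fourth gene near 0 in I17, si:ch73-170l17.2, had 40 and 54 counts in I10, 6 to 45 counts in I32, and 0, 1 and 1 counts in I17, but its lowest I10 libraries had only 2 counts at 48 hpf and 3 counts at 96 hpf. Second genes of the same name were detected in every batch. anxa3b had 165 to 402 counts in the 9 I17 libraries at 24 hpf, irradiated ones included, and the other PAQR3 (ENSDARG00000044253) had 71 to 116 counts in them. eef2b lay at 7150 to 15500 CPM in the same libraries and at 8280 to 10500 CPM in the 5 I10 libraries of that stage.

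ubb (ENSDARG00000093313), which encodes polyubiquitin, was reduced in I17 but not absent. It had 50.2 and 32.3 CPM in I10, 26.7 to 38.4 CPM in I32, and 0.542, 0.506 and 0.63 CPM in I17. Its I17 minus I10 log2 difference was -5.95 at 24 hpf, and -6.46 and -5.61 in the unexposed embryos at 48 and 96 hpf. HNRNPDL (ENSDARG00000003429), an RNA-binding protein, was the converse case. It had 289 and 247 counts in I10, 193, 124 and 225 counts in I17, and 1 or 2 counts in each I32 control. The I10 to I32 ratio was 214 (95% counting interval 108 to 497), and no I32 library at 24 hpf, irradiated ones included, had more than 3 counts. The second gene near 0 in I32 was her4.3, a Notch target of the hairy family with tandem copies among which the division of reads is uncertain. It had 32 and 48 counts in I10, 34, 17 and 38 counts in I17, and at most 3 counts in any I32 control, an I10 to I32 ratio of 23.2 (95% counting interval 12.3 to 48.3). MMGT1 (ENSDARG00000010553), a membrane magnesium transporter, had 9.25 and 9.08 CPM in I10, 7.01, 5.36 and 5.57 CPM in I17, and 0.0804 to 0.59 CPM in I32. Low levels of MMGT1 were also seen in I10, where the lowest libraries at 48 and 96 hpf had 0.758 and 0.446 CPM. SEC31A (ENSDARG00000021082), a coat protein of vesicles that leave the endoplasmic reticulum, had 34.1 and 21.3 CPM in I10, 14.8 to 18.3 CPM in I17 and 2.46 to 4.93 CPM in I32. birc2, an inhibitor of apoptosis, had 157 and 49 counts in I10, 61 to 121 counts in I32, and 2, 2 and 6 counts in I17. These 2 genes were chosen after their values were seen. si:ch211-214b16.2 had 50 and 28 counts in I10 and 0 counts in all I17 and I32 controls.

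**Figure D4:**
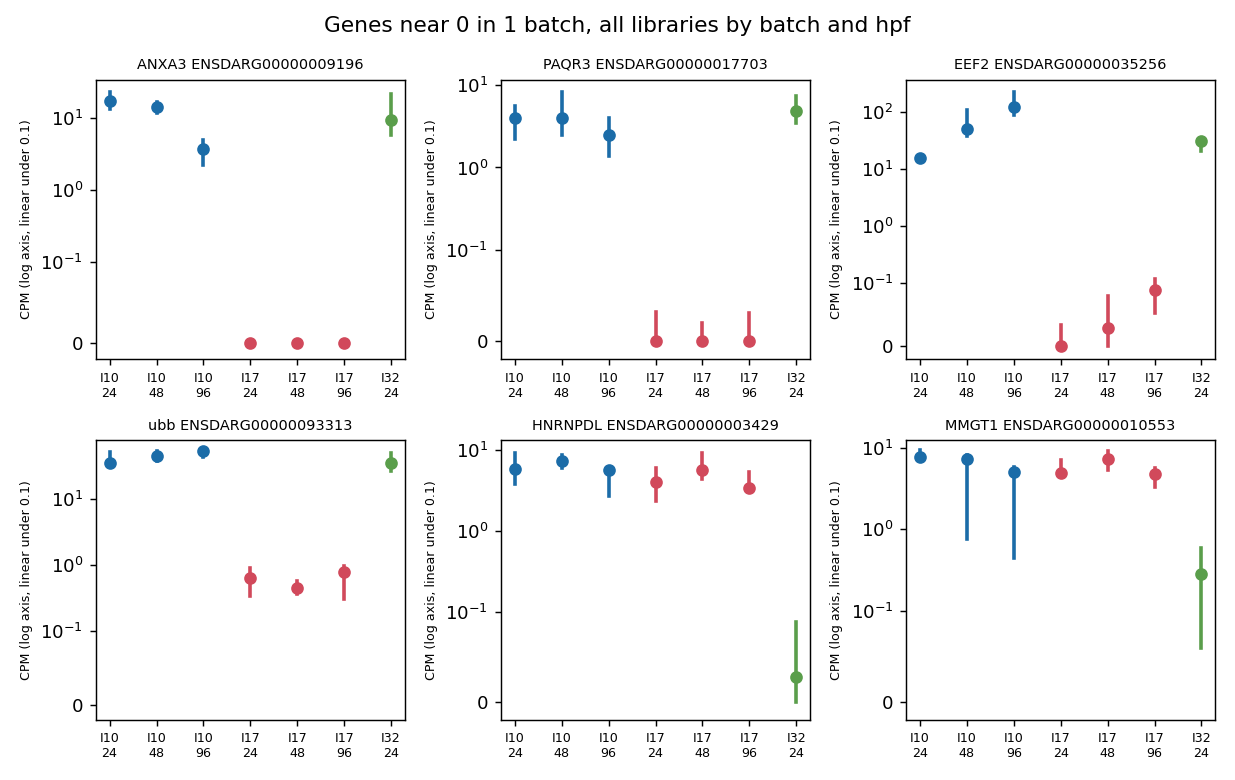
CPM (log axis, linear under 0.1) of 6 genes in all libraries by batch and stage in hpf, irradiated libraries included; points are medians and bars run from the lowest to the highest library. ANXA3 stood at 0 in all 27 libraries of I17, and HNRNPDL had at most 3 counts in any I32 library.

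Some of the genes lower in I17 were neighbours in the genome. Of the 19687 genes tested, 13983 could be placed by symbol in the RefSeq gene order of the assembly GRCz12tu, which is not the build of the counts. It was used for order only. In windows of 20 consecutive placed genes the median number called lower for I17 against I10 was 1, and 5.35% of placed genes were called lower. The highest window held 11 of 20. It was also the highest for I17 against I32, with 10 of 20 at nearly the same place, beside 4.31% of placed genes. Its members had unlike functions, among them VCP, an ATPase that extracts ubiquitinated proteins, RIOK2, a kinase of ribosome assembly, FANCG, a Fanconi anaemia protein of DNA repair, NCOR1, a nuclear receptor corepressor, and ubb at its end. Over the 20 genes, the median log2 difference was -1.33 for I17 minus I10, -0.98 for I17 minus I32 and -0.3 for I32 minus I10. In the unexposed embryos at 48 and 96 hpf, 11 of the 20 were lower in I17 than in I10 at each stage, with medians of -1.43 and -1.18. In both cases 8 of them were among the 11 called at 24 hpf. Over all genes, 6.67% were lower at 48 hpf and 9.67% at 96 hpf. These are other libraries but of the same 2 batches, so that they are not an independent observation. The window was chosen by its 24 hpf calls, so that its values at 24 hpf are a description. Its size was fixed at 20 genes, and some nearby placed genes on both sides were also called lower in I17 than in I10. These were CNOT6L, MRPL1, BMP2K, CDS1 and si:dkey-3h3.3 before it, and ERAL1 and mob1ba after it. The 2 windows with most genes higher in I17 than in I10 held the gamma M crystallins (10 of 20) and the fast myosins (6 of 20), both tandem families. In that direction 2.82% of placed genes were called, with a median of 0 per window. For I32 against I10 the highest windows, at 8 of 20 in either direction, held genes of unlike families. They included kynu, orc4 and med8 (higher) and pard6a, cfdp1 and fkbp16 (lower). In that comparison 6.44% of placed genes were called higher and 8.27% lower, with a median of 1 per window in either direction.

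**Figure D5:**
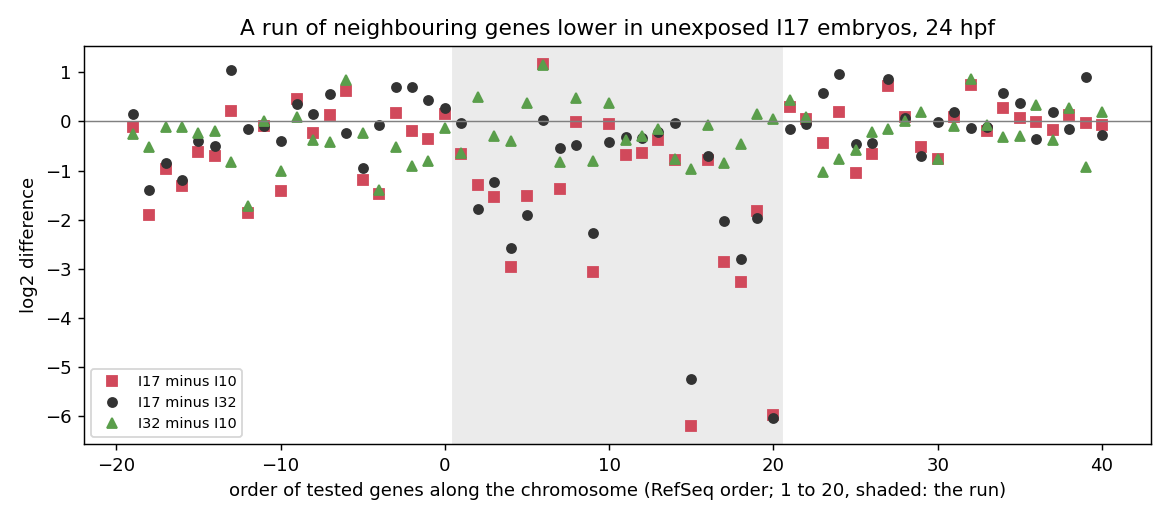
Log2 difference of each placed gene (symbols for the 3 comparisons of unexposed batches) against its order along the chromosome; the shaded 20 genes are the window with most genes lower in I17. Medians over the shaded genes were -1.33 (I17 minus I10), -0.98 (I17 minus I32) and -0.3 (I32 minus I10).

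Genes higher in I32 included an enzyme and a chemokine of inflammation and single genes of cardiac muscle, given here as TMM-scaled CPM. irg1l, which encodes an enzyme of itaconate synthesis, had 30 CPM in the lowest I32 library, a median of 49.5 and 61.6 in the highest. It had 2.51 and 2.05 CPM in I10 and 4.09, 5.22 and 3.35 CPM in I17. Its neighbour si:ch211-153b23.3 had 6.15 to 14.4 CPM in I32, 0.896 and 0.841 CPM in I10 and 0.719 to 1.69 CPM in I17. ccl20a.3, a chemokine, had 2.38 to 9.54 CPM in I32, while I17 had 0.174 to 0.605 CPM and I10 had 0.0512 and 0.0742 CPM. Before scaling, these are 1363 counts over the I32 libraries and 5 over the I10 libraries, a ratio of 85.5 with a 95% counting interval of 36.5 to 264. sult5a1, a cytosolic sulfotransferase, had 2.81 to 8.86 CPM in I32 and at most 0.546 CPM in any library of the other batches. MYH6 (ENSDARG00000114031), a myosin heavy chain of heart muscle, had 3.43 to 3.9 CPM in I32, 0.307 and 0.594 CPM in I10 and 0.265 to 0.347 CPM in I17. actn2b, an alpha-actinin of the sarcomere, had 12.4 to 16 CPM in I32 and at most 5.27 CPM elsewhere. In all of these genes I32 did not overlap the other batches. Of 16 cardiac genes tested, 4 were higher and 2 lower in I32 than in I10 (2 and 0 without I10 replicate 2), and 0 were higher and 3 lower in I17 than in I32. Of 16 neutrophil and macrophage genes, 1 was higher and 2 were lower in I17 than in I32, and MPEG1, a macrophage marker, had 1.06 to 3.27 CPM in I32 and 0.416 to 0.767 CPM elsewhere. The part of these cells in the differences above was not tested.

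The differences between I32 and I10 were compared with those in the irradiated libraries of the same batches, which are other embryos. These libraries come from the same irradiation batches as the controls, so that the 2 comparisons are not independent. Of 2684 genes called between the controls, 2667 were also tested at 0.5 mGy/h, and 2523 of these differed in the same direction. The share in the same direction over all genes tested in both was not computed. At 0.5 mGy/h, 216 genes were called in all (1.12% of 19238), 121 higher in I32 (0.629%) and 95 lower (0.494%), and 149 of them had been called the same way in the controls (5.59% of the control calls and 69% of the calls at 0.5 mGy/h), with 0 called the other way. The log2 differences of the 2 comparisons correlated over 19088 genes (Pearson r = 0.63, across genes). HNRNPDL had -7.24 in the controls and -7.09 at 0.5 mGy/h. MMGT1 had -4.28 and -4.79, irg1l had 4.4 and 2.95, and sult5a1 had 5.71 and 3.80. her1, with -1.29 in the controls, had 0.17 at 0.5 mGy/h, and msgn1 went from -1.84 to 0.67. The fit at 0.5 mGy/h was not stable to single libraries, with 39 to 838 genes called when each was left out.

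The I17 minus I10 difference was followed in unexposed embryos at 48 and 96 hpf in a fit of all 3 stages. In this fit of 21532 genes 1168 were called at 24 hpf (5.42%), 641 of them higher (2.98%) and 527 lower (2.45%) in I17 at 24 hpf, so that the share of higher genes was 54.9% against 36.9% in the fit of the 24 hpf controls alone. Of these 1168 genes, 398 were called the same way at 48 hpf (34.1%) and 276 at 96 hpf (23.6%), and 3 and 16 were called the opposite way. The background was 9.67% of genes called at 48 hpf (3% higher and 6.67% lower in I17) and 14.9% at 96 hpf (5.19% higher and 9.67% lower). A set of 187 genes was called the same way at all 3 stages, 26 higher and 161 lower in I17. In edgeR's test of the difference between stages, 40 genes (0.186%) differed between 24 and 48 hpf, of which 0.144% of the genes tested had the higher difference at 24 hpf and 0.0418% the lower. Between 24 and 96 hpf 718 genes (3.33%) differed, with 2.36% higher and 0.975% lower at 24 hpf. Leaving out I10 replicate 2 at 24 hpf lowered the set of 187 genes to 32, and leaving out I10 replicate 12 at 96 hpf raised it to 406.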

How the data were processed

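Deposited tables hold the whole-number counts per gene that the authors obtained with STAR on GRCz11 with Ensembl annotation, after adapter trimming, with 50-base paired reads from a stranded library. The column of the sense strand (the fourth) was used, and the 4 summary rows per file were left out. Unplaced fragments took 15.9 to 16.7% (multimapping), 5.51 to 7.81% (no feature), 2.49 to 5.44% (unmapped) and 0.6 to 0.681% (ambiguous) of read pairs. Samples were grouped by the GEO labels. Fits used edgeR 4.0.16 in R 4.3.3 (filterByExpr, TMM, glmQLFit, glmQLFTest), Benjamini-Hochberg adjustment over all genes, a fold change of 1.5 and an adjusted p of 0.01. DESeq2 1.42.0, other filters, scalings and thresholds, leaving out libraries and the replicate block were alternatives. Log2 CPM used a prior count of 2. Intervals and floors cover counting error only. The calling of genes was tested on simulated counts. The position measure was checked only on the I10 libraries that define its axis, and the other steps had no such test.

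Gene names came from the tables at hand. Of the genes, 16524 had a zebrafish symbol, 11288 a human-style symbol without a paralogue suffix, 1183 a symbol from a supplementary table of the study, and 3062 none. Named genes were the 4 largest changes per comparison and direction without overlap between the batches, all clock and light genes tested, up to 3 called genes of each other list by adjusted p, and 4 genes called at all 3 stages. Genes near 0 and neighbouring windows were added after the data were seen, as were list counts without single libraries. The members and lists were chosen with earlier results of these data known. Replicate numbers did not pair libraries, with correlations of deviations between -0.23 and 0.158 for libraries with the same number.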

Additional observations from a re-analysis of the deposited data

Results flagged for a closer look

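Of 178 values tested in the 6 I32 controls, 8 held a library far from the other 5. The rule used flags about 1 in 20 independent groups by chance. These values are of chosen genes in the same 6 libraries and are not independent, so that no conclusion was drawn from this rate. In 6 of these 8 the library was replicate 4, a share for which no chance rate was computed. In replicate 4, anxa1b was at 51.5 CPM against 78.8 to 91.1, znf1021 at 0.298 against 0.572 to 0.671 and ca15b at 0 against 0.097 to 0.135. Replicate 4 was high for dlgap5 (75.7 against 53.6 to 57.9 CPM), PTS (20.3 against 14.2 to 15.8) and cry-dash (15.9 against 12.5 to 13.2). Replicate 1 was low for actn2b (12.4 against 14.7 to 16 CPM) and replicate 2 high for hmgb1b (182 against 123 to 145 CPM).

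The I17 minus I10 difference of unexposed embryos itself differed between stages for 40 genes (24 against 48 hpf) and for 718 genes (24 against 96 hpf) in edgeR's test of the interaction. MYOG went from -0.81 at 24 hpf to 0.73 at 48 hpf on the log2 scale, and PTS, a pteridine synthesis enzyme, from 1.34 to 0.06. The counts were 4 and 22 without I10 replicate 2 at 24 hpf.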

How the results depend on the processing

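The named genes made 65 calls for I17 against I10, 95 for I32 against I10 and 82 for I17 against I32, and none of these changed direction under the alternatives run. Without I10 replicate 2, 19, 28 and 82 kept their call, with the replicate block 32, 57 and 66, and with glmTreat 20, 17 and 29. Calls depended on single libraries. When each was left out, the number of genes called ran from 95 (without I10 replicate 2) to 1955 for I17 against I10, from 222 (without I10 replicate 2) to 3036 for I32 against I10, and from 806 (without I17 replicate 4) to 1703 for I17 against I32. For I32 against I10 at 0.5 mGy/h it ran from 39 to 838, and the genes called the same way as in the controls from 33 to 545. In the fit of 3 stages, genes called at 24 hpf ran from 56 to 1857, those called at all stages from 32 to 406, and those that differed between stages from 4 to 109 (24 against 48 hpf) and from 22 to 700 (24 against 96 hpf). The position difference was 15.55 without I10 replicate 2, 17.15 without I32 replicate 4, and 11.56 on the axis of the I17 controls, where it has no test. That last value used 19788 genes with only I32 placed on the axis. The I32 mean of -10.8% given above used 20478 genes, with I10 placed there too.

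With glmTreat, which tests each change against 1.5-fold, 105, 106 and 155 genes were called for I17 against I10, I32 against I10 and I17 against I32. An adjusted p of 0.05 called 3020 for I17 against I10 and 4059 for I32 against I10. DESeq2 called 560 genes at 0.5 mGy/h (322 the same way as in the controls), 1870 at 24 hpf in the fit of stages, 331 at all 3 stages, and 288 and 1408 that differed between 24 and 48 and between 24 and 96 hpf. The cause of these shifts was not tested. Replicate numbers share only a number across batches. With the replicate block, 247 genes were called for I17 against I10, 1004 for I32 against I10, 696 for I17 against I32 and 553 at 0.5 mGy/h (278 the same way as in the controls). In the fit of stages the block gave 29 at 24 hpf, 19 at all 3 stages, and 4 and 8 that differed between stages.

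RPS12 (ENSDARG00000036875), a ribosomal protein, was called in both comparisons with I32 by the sense column but not by the unstranded column (adjusted p = 0.0258 and 0.0678). Ratios of the genes near 0 rest on few counts, and their intervals cover counting error only.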

Other observations

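Counts of further gene lists in I17 against I32 are read beside 3.8% of all genes higher and 3.78% lower. Of 24 genes of sterol synthesis, 1 was higher and 2 were lower in I17 than in I32. HMGCS1 (ENSDARG00000103025), which makes the precursor of mevalonate, had 16.1 to 17.4 CPM in I17 and 9.4 to 12.3 CPM in I32, while cyp51, a later enzyme of the pathway, had 11.9 to 15.7 CPM in I17 and 18.3 to 24.8 CPM in I32. PCK1 (ENSDARG00000013522), an enzyme of glucose production, had 12.5 and 14 CPM in I10, 22.2, 33.6 and 21.8 CPM in I17, and 40.2 to 60.5 CPM in I32, so that the 3 batches did not overlap. F7 (ENSDARG00000075827), a clotting factor, had 2.3 and 1.53 CPM in I10, 3.16 to 4.74 CPM in I32, and 6.15, 9.99 and 11.5 CPM in I17.

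Genes of hypoxia responses included vegfaa, a growth factor of blood vessels, at 11.7 and 11.4 CPM in I10 against 4.65 to 7.02 CPM in I17 and 3.18 to 6.5 CPM in I32. Over the 34 genes of that list, the median log2 difference was -0.09 for I17 minus I10 and -0.13 for I32 minus I10. Of all genes tested, 5% were lower and 2.92% higher in I17 than in I10. For I32 against I10 these shares were 7.89% and 5.74%. Of the hypoxia list, 4 were lower in I17 and 4 in I32 than in I10, with 0 and 3 higher. Without I10 replicate 2, these counts were 0 lower in I17 (median log2 difference 0.12) and 1 lower in I32 (median 0.08), with 0 higher in either. Of 18 vitellogenin and oocyte transcripts, 0 were higher and 4 were lower in I17 than in I32 (median log2 difference -0.73), and 1 was lower without I17 replicate 4 or replicate 1. Over all genes, 386 and 564 were lower in these fits. Of 30 genes of the p53 response, 0 were higher and 1 was lower in I17 than in I32, and mdm2, a regulator of p53, had 8.7 to 11.1 CPM in I17 and 13.5 to 23 CPM in I32. Of 34 mitosis genes, 0 were called between I17 and I32.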
